A study of Mus musculus with 36 samples.

Results

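Keratins are the intermediate filament proteins of epithelial cells. Filaments form from pairs of an acidic type I and a basic type II keratin, and a partner left unpaired is usually degraded. In the intestine Krt8 (type II) pairs with Krt18, Krt19 and Krt20 (type I), and the filaments are anchored at desmosomes and hemidesmosomes. Krt20 is known as a keratin of differentiated surface cells, and Krt7 is sparse in the normal small intestine but present in ducts and other simple epithelia. The 7 epithelial keratins described here are Krt7, Krt8 and Krt80 of type II and Krt18, Krt19, Krt20 and Krt23 of type I. They were chosen by gene symbol from the 52636 genes listed in each library, and 47 other keratin genes of the annotation were kept apart for comparison. The keratins and the other gene lists were chosen with earlier results of these data known. Counts called beside the share over all genes are therefore descriptions.

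Bulk RNA was sequenced from intestinal organoids, which are epithelial structures grown in Matrigel from crypts of the jejunum of C57BL/6 mice. The 36 libraries fall into 6 conditions of 6, and every culture received either control IgG or an antibody against the receptor tyrosine kinase-like protein Ptk7. The organoids came from crypts of 6 mice, and the replicate numbers 1 to 6 of the labels are not tied to a mouse, so that p-values measure the spread between these libraries. Totals ran from 9581589 to 21029769 counts (median 13490071).

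With IgG there were 4 conditions, named complete media + IgG (IntestiCult, the standard growth medium of these cultures), QCM + IgG, SCM + IgG and Wnt5a + IgG. With the antibody there were 2, named SCM + anti-Ptk7 and Wnt5a + anti-Ptk7. QCM and SCM are media conditioned by mouse embryonic fibroblasts that were quiescent (serum deprived) or senescent, and they were given together with IntestiCult. The fibroblasts were made senescent by X-rays or by doxorubicin, and which of these gave the medium of these libraries is not given in the sources used here. Wnt5a, a ligand of noncanonical Wnt signaling, was added to complete media. The antibody was given in SCM and in Wnt5a, so its effect in complete media or in QCM was not analysed here. The medium names below stand for the cultures with IgG unless anti-Ptk7 is named.

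All 7 keratins were detected, with a mean over the 36 libraries above the limit of 0.5 CPM (counts scaled to a common library size, with TMM factors). Levels that are compared between genes are given per kilobase of coding sequence, which the methods name as the counted part of a gene. Krt8-ps, a pseudogene without coding sequence, also held counts, so other parts of genes may have been counted too. On that scale Krt19 was the most abundant in complete media, with 2637 ± 537 CPM per kb (SD, n = 6), followed by Krt18 with 1173 ± 290. Krt8 stood at 498 ± 121 and Krt7 at 471 ± 168, Krt20 at 136 ± 61.0 and Krt23 at 48.4 ± 19.8. Krt80 was far below the others at 1.38 ± 1.24 CPM per kb, and its counts per library ran from 4 to 101. Per kilobase of all exons, Krt7 stood at 91.6 ± 32.6 and was level with Krt20 (91.5 ± 40.9) rather than with Krt8 (374 ± 90.5), because the annotated exons of Krt7 are 7049 bases long and its coding sequence is 1371. The 7 genes together took between 0.483% and 2.61% of all counts of a library.

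The genes lie in the 2 keratin clusters of the mouse genome (positions in GRCm38). The type II genes Krt7 (ENSMUSG00000023039, chr15:101411043-101430313), Krt8 (ENSMUSG00000049382, chr15:101996698-102004482) and Krt80 (ENSMUSG00000037185, chr15:101347444-101370162) lie on chromosome 15. Krt18 (ENSMUSG00000023043, chr15:102028180-102032027) is the type I gene that lies beside Krt8, outside the type I cluster. Krt19 (ENSMUSG00000020911, chr11:100140810-100148665), Krt20 (ENSMUSG00000035775, chr11:99428403-99438150) and Krt23 (ENSMUSG00000006777, chr11:99477974-99493137) lie on chromosome 11. Krt7, Krt8 and Krt80 each overlap a non-coding gene of the opposite strand, and reads of such a pair cannot be told apart where the counting does not use strand, which is not given in the sources used here. Krt8-ps, a processed pseudogene of Krt8, held a mean of 325 CPM and a log2 ratio to Krt8 of −2.04 ± 0.04 (SD, n = 36). Reads from Krt8 can be assigned to this copy, so the level of Krt8 is uncertain by that amount, and adding the counts of Krt8-ps to Krt8 changed no count of calls.

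Promoter sequences were taken from RefSeq (GRCm38.p6, 250 bases before to 50 after the start used there), which held 5 of the 7 genes. That start can differ from the gene positions given above, and the window of Krt7 lies wholly inside the gene as positioned there. The promoters of Krt8 and Krt18 are shown as a type II and type I pair of genes that lie side by side. That of Krt7 is shown as the second abundant type II keratin and that of Krt20 for the largest change in SCM and Wnt5a. Capitals mark matches, on either strand, to 6 motifs, namely GGAATG (the TEAD factors that YAP binds), TGANTCA (AP-1), CACCC and GGGCGG (KLF and SP factors), TTTATG (CDX) and TATAAA (the TATA box).
Krt8, chr15:102004293-102004592, minus strand: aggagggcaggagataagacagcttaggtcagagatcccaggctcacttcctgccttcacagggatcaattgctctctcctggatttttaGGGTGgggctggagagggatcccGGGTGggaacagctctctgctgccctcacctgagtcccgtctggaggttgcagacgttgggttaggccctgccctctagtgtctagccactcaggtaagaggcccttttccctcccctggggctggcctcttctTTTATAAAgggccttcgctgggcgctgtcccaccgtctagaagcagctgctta
Krt18, chr15:102027966-102028265, plus strand: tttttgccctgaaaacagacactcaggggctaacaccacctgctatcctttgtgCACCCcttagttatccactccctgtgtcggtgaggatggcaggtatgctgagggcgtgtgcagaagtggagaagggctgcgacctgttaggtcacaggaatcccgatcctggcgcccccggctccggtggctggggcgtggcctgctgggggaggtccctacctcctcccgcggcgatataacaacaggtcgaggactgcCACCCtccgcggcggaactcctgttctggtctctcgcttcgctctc
Krt7, chr15:101412153-101412452, plus strand: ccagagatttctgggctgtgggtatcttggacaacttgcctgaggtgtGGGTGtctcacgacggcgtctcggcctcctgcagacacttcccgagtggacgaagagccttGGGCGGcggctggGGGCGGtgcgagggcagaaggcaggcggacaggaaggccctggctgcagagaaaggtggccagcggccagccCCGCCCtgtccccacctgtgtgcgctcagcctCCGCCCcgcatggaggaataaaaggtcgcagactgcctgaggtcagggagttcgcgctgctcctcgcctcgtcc
Krt20, chr11:99438104-99438403, minus strand: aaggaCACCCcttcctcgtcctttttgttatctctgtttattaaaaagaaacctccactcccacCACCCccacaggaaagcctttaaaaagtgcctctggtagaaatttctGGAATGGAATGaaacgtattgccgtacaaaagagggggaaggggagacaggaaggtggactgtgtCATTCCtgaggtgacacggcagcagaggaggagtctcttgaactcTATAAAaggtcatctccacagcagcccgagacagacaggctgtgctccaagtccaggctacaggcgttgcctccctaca

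The promoter of Krt20 held 3 matches to GGAATG, at positions −139, −134 and −74 from the start, and was the only one of the 5 keratin promoters with this motif. The motif is in 14.7% of the 32851 promoters of the table. Krt20 also held a TATAAA at −29. The CACCC motif was in 4 of the 5 promoters (Krt7, Krt8, Krt18 and Krt20) and in 57.5% of all. GGGCGG was found in that of Krt7 alone, with 4 matches, and in 35.7% of all. No keratin promoter held TGANTCA, which is in 7.81% of all promoters. TATAAA was in those of Krt8 and Krt20 and in 13.6% of all, and TTTATG in that of Krt23 (chr11:99493071-99493370) and in 11.9%. Matches to TATAAA and its reverse overlap in Krt8, and the adjoining GGAATG matches of Krt20 share 1 base. A match is a run of letters and does not show that a factor binds.

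To ask how fibroblast media and Wnt5a changed the keratins, each medium was compared with complete media by the quasi-likelihood test of edgeR, in which a call needed a fold change over 1.5 and a Benjamini-Hochberg adjusted p under 0.05. All 7 keratins rose in SCM, where 4.96% of the 15497 genes tested were called higher. In Wnt5a 6 of 7 rose, all but Krt80, where 8.29% of genes were called higher. In QCM none of the 7 was called, where 0.374% of genes were, and DESeq2 and voom with limma also called none. A fit that also held the replicate number, given at the end, called Krt20. The median log2 fold change of the 7 keratins was 1.33 in SCM, 1.22 in Wnt5a and 0.41 in QCM, beside medians of 0.01, 0.01 and 0.02 over all genes tested. These comparisons share the complete media libraries, and the 7 keratins were chosen with earlier results of these data known.

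**Figure D1:**
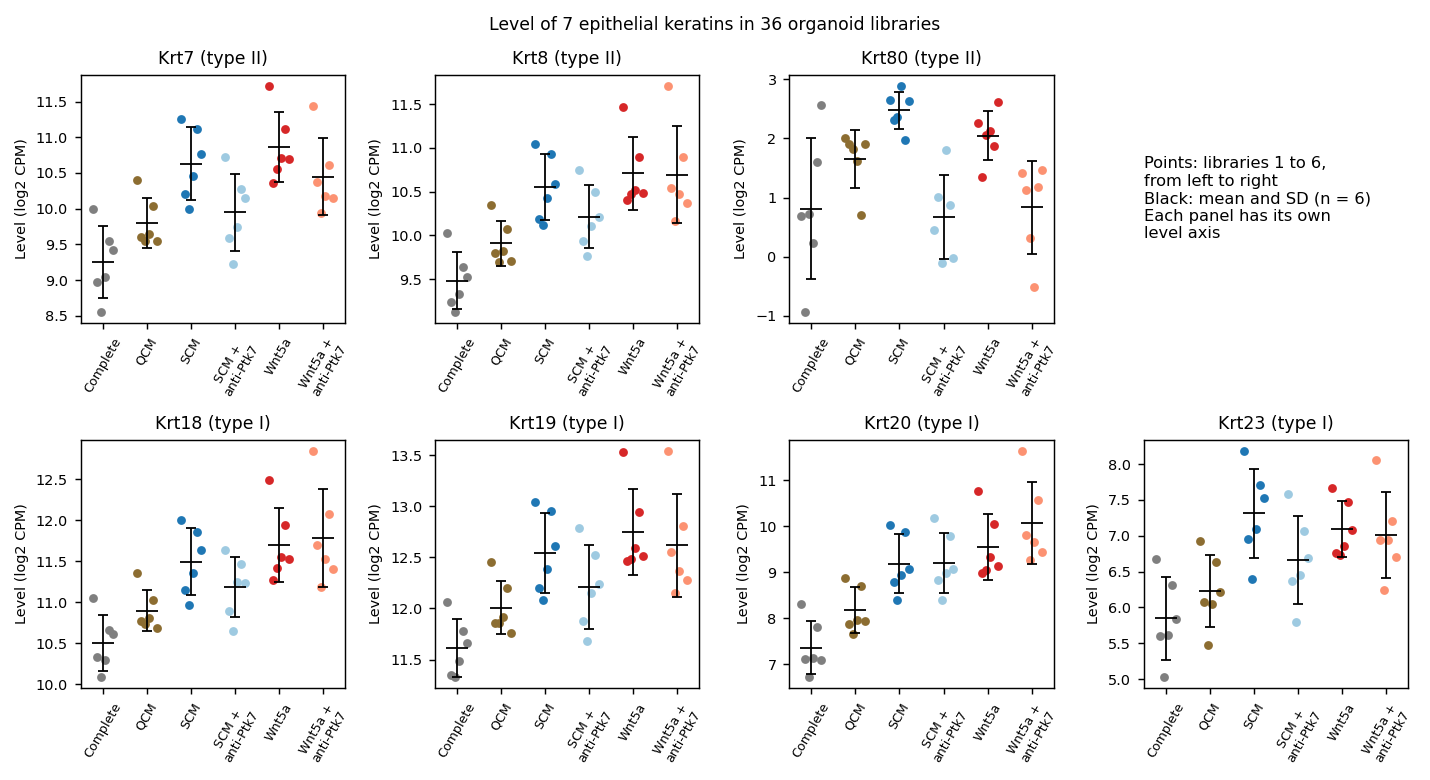
Level of each keratin in every library (log2 CPM, an axis of its own for each gene), by condition. Points are libraries numbered 1 to 6 from left to right, and black marks are the mean and SD of 6. Except for Krt80, the library numbered 1 is the highest of each condition.

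Krt8, the main type II keratin of simple epithelia, ran from 561 to 1048 CPM in complete media (median 690), from 1111 to 2112 in SCM (median 1461) and from 1360 to 2837 in Wnt5a (median 1447). Neither range overlapped that of complete media. Krt8 rose by a log2 fold change of 1.08 (SE 0.22, edgeR adjusted p = 0.00110) in SCM and 1.25 (SE 0.22, adjusted p = 0.000103) in Wnt5a. In QCM the level was 833 to 1309 CPM, overlapping complete media, and the log2 fold change of 0.41 (95% interval −0.01 to 0.84) was not called.

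Krt7, a type II keratin of ducts and other simple epithelia, moved further than Krt8. It held 378 to 1027 CPM in complete media (median 608), 1018 to 2447 in SCM (median 1571) and 1310 to 3367 in Wnt5a (median 1671). The Wnt5a libraries stood above all of complete media, and those of SCM did so but for an overlap of 1 library at the edge. Its log2 fold change was 1.37 (SE 0.27, edgeR adjusted p = 0.000824) in SCM and 1.60 (SE 0.28, adjusted p = 6.84e-05) in Wnt5a.

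Krt80, a type II keratin of low abundance, ran from 0.376 to 5.76 CPM in complete media (median 1.48), from 3.79 to 7.24 in SCM (median 5.55) and from 2.40 to 5.97 in Wnt5a (median 4.11). Complete media was the widest of these ranges and overlapped both others. The log2 fold change of 1.33 (SE 0.40, edgeR adjusted p = 0.0263) in SCM passed, and that of 0.91 in Wnt5a (SE 0.40, adjusted p = 0.105) did not. The call in SCM was lost without any of 6 of the 12 libraries. The adjusted p was then 0.0518, 0.0638, 0.0690 or 0.0750 without complete media replicate 1, 2, 3 or 4, and 0.0574 or 0.0517 without SCM replicate 1 or 4. Without complete media replicate 6, the library with 5.76 CPM, the change in Wnt5a was 1.48 and passed (adjusted p = 0.00646).

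Among the type I keratins, Krt18, the usual partner of Krt8, ran from 1087 to 2120 CPM in complete media (median 1426), from 1987 to 4089 in SCM (median 2907) and from 2464 to 5762 in Wnt5a (median 2961). The ranges of SCM and complete media overlapped at their edge, and that of Wnt5a stood apart. Krt18 rose by a log2 fold change of 1.00 (SE 0.23, edgeR adjusted p = 0.00337) in SCM and 1.22 (SE 0.23, adjusted p = 0.000223) in Wnt5a.

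Krt19, the smallest keratin and the most abundant here, held 2579 to 4283 CPM in complete media (median 3064), 4326 to 8427 in SCM (median 5815) and 5625 to 11867 in Wnt5a (median 5987). Both ranges lay above complete media. Its log2 fold changes, 0.95 (SE 0.22, edgeR adjusted p = 0.00288) in SCM and 1.17 (SE 0.22, adjusted p = 0.000166) in Wnt5a, were the lowest among the keratins called in each medium. Krt18 and Krt8 were the next in SCM, and Krt23, Krt18 and Krt8 in Wnt5a.

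Krt20, the keratin of differentiated villus cells, showed the largest change of the 7 in both media. It held 105 to 315 CPM in complete media (median 139), 339 to 1056 in SCM (median 511) and 504 to 1749 in Wnt5a (median 606). Neither of the last 2 ranges overlapped that of complete media. The fold change was 3.59 in SCM (log2 1.84, SE 0.39, edgeR adjusted p = 0.00146) and 4.78 in Wnt5a (log2 2.26, SE 0.39, adjusted p = 8.37e-05). In QCM it held 203 to 471 CPM, and the log2 fold change of 0.79 (95% interval 0.04 to 1.53, adjusted p = 0.411) was the only one among the 7 with an unadjusted p under 0.05 in that medium.

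Krt23, a type I keratin of low to moderate level, held 32.4 to 102 CPM in complete media (median 53.0), 84.4 to 291 in SCM (median 160) and 106 to 202 in Wnt5a (median 125). The SCM libraries overlapped complete media and the Wnt5a libraries did not. Changes on the log2 scale were 1.48 (SE 0.31, edgeR adjusted p = 0.00129) in SCM and 1.20 (SE 0.31, adjusted p = 0.00452) in Wnt5a. Over the 7 keratins, the libraries stood wholly above complete media for 3 in SCM (Krt8, Krt19 and Krt20), where 3.76% of genes tested did so, and for 6 in Wnt5a, where 6.85% did.

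SCM was then compared with QCM, which is also conditioned by fibroblasts that do not divide. The log2 fold change was positive for all 7 keratins, with a median of 0.82 beside −0.01 over all genes, and 1 of 7 was called, where 0.761% of genes were called higher. Krt23 held 44.3 to 121 CPM in QCM (median 70.7) and 84.4 to 291 in SCM (median 160), with overlapping ranges. It rose by a log2 fold change of 1.12 (SE 0.31, edgeR adjusted p = 0.0472). For the other 6, the log2 fold changes ran from 0.56 in Krt19 (adjusted p = 0.164) to 1.06 in Krt20 (SE 0.38, adjusted p = 0.135). Each of the 7 had an unadjusted p under 0.05. The count was 1 with DESeq2, 3 with voom and limma, 5 in a fit of only these groups, and 0 without a filter on low counts (Krt23 adjusted p = 0.0563). The call of Krt23 was lost without any of 8 libraries, with an adjusted p of 0.121, 0.159, 0.115 or 0.0544 without QCM replicate 2, 3, 4 or 6 and of 0.162, 0.0573, 0.0814 or 0.0751 without SCM replicate 1, 4, 5 or 6.

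Wnt5a and SCM were set beside each other without the shared control. None of the 7 keratins was called, where 0.690% of genes were, and none had an unadjusted p under 0.05. DESeq2 and voom with limma also called none. The log2 fold change of Wnt5a over SCM ran from −0.42 in Krt80 (95% interval −1.18 to 0.34) to 0.41 in Krt20 (−0.32 to 1.15). For Krt8 it was 0.17 (−0.26 to 0.60) and for Krt23 −0.29 (−0.88 to 0.30). Each of these intervals holds changes of either sign.

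**Figure D2:**
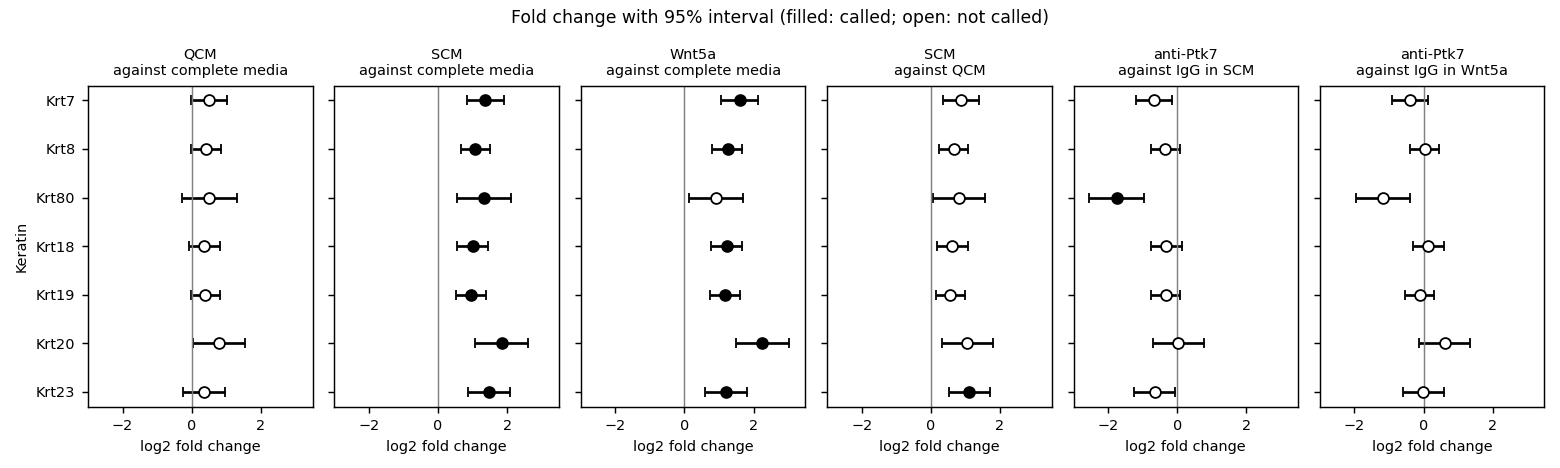
Log2 fold change of each keratin in 6 comparisons, with its 95% interval from the standard error. Filled circles passed the call and open circles did not. The SCM and Wnt5a panels hold 7 and 6 filled circles, and Krt80 is the only filled circle of the antibody panels.

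To ask which part of these changes went with Ptk7, cultures with anti-Ptk7 were compared with cultures with IgG in the same medium. In SCM 1 of 7 keratins fell, Krt80, where 0.645% of genes were called lower. Krt80 ran from 0.783 to 3.36 CPM with anti-Ptk7 (median 1.45) and from 3.79 to 7.24 with IgG. The groups did not overlap, which 0.994% of the genes tested also showed in this direction. The log2 fold change was −1.75 (SE 0.41, edgeR adjusted p = 0.0149), a 3.37-fold lower level. In this comparison the call held without each of the 12 libraries in turn.

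Of the other keratins in SCM, Krt7 and Krt23 had an unadjusted p under 0.05 without passing the call. Both passed in the fit that also held the replicate number, given at the end. Krt7 stood at 596 to 1685 CPM with anti-Ptk7 (median 994) and at 1018 to 2447 with IgG (median 1571), with a log2 fold change of −0.67 (SE 0.27, edgeR adjusted p = 0.182). Krt23 stood at 55.2 to 191 CPM with anti-Ptk7 (median 95.1) and at 84.4 to 291 with IgG (median 160), with −0.65 (SE 0.30, adjusted p = 0.256). Both pairs of ranges overlapped. Krt8, Krt18 and Krt19 had log2 fold changes between −0.34 and −0.32, none called. Krt20 stood at 335 to 1158 CPM with anti-Ptk7 and at 339 to 1056 with IgG. Its log2 fold change of 0.03 has a 95% interval of −0.71 to 0.77.

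In Wnt5a, none of the 7 was called for the antibody, where 0.884% of genes were called, and DESeq2 and voom with limma also called none. Krt80 again had the largest difference, 0.548 to 2.63 CPM with anti-Ptk7 (median 2.07) against 2.40 to 5.97 with IgG (median 4.11). Its log2 fold change of −1.17 (SE 0.40, edgeR adjusted p = 0.118) was the only one of the 7 with an unadjusted p under 0.05. Krt20 held 613 to 3186 CPM with anti-Ptk7 (median 861) against 504 to 1749 (median 606), with overlapping ranges and a log2 fold change of 0.61 (95% interval −0.12 to 1.35, adjusted p = 0.477). Below the library at 3186 CPM, the next with anti-Ptk7 was at 1528. Over the alternative fits, with single libraries left out among them, the Krt20 change ran from 0.11 to 0.96. The difference of the antibody effect between Wnt5a and SCM was tested directly, and no keratin was called, where 0.00% of all genes were. No keratin had an unadjusted p under 0.05 in that test, and DESeq2 and voom with limma called none.

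With the antibody present, the keratins can also be read against complete media. In SCM + anti-Ptk7, 3 of 7 were higher, where 4.52% of genes were called higher. These were Krt20 (log2 1.87, SE 0.39, edgeR adjusted p = 0.00117), Krt8 (0.74, adjusted p = 0.0234) and Krt18 (0.68, adjusted p = 0.0461), while Krt19 (0.62, adjusted p = 0.0532), Krt7 (0.70, adjusted p = 0.0876), Krt23 (0.83, adjusted p = 0.0722) and Krt80 (−0.42, adjusted p = 0.570) did not pass. In Wnt5a + anti-Ptk7, 6 of 7 were higher, where 10.5% of genes were called higher. They ran from 1.06 in Krt19 (SE 0.22, adjusted p = 0.000263) to 2.87 in Krt20 (SE 0.40, adjusted p = 1.67e-06), and Krt80 was the exception (−0.26, adjusted p = 0.673).

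Ordered by mean log2 CPM, complete media was the lowest condition and QCM the next for each of 6 keratins, and an IgG culture in SCM or Wnt5a, or Wnt5a + anti-Ptk7, was the highest. For Krt18 and Krt20 the top was Wnt5a + anti-Ptk7, for Krt7, Krt8 and Krt19 it was Wnt5a, and for Krt23 and Krt80 it was SCM. Krt80 alone had SCM + anti-Ptk7 as its lowest condition. None of the 35 pairs of neighbours in these 7 orders was called.

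The proportions among the keratins were described from their levels per kilobase of coding sequence, as shares of the sum over the 7. The sum was 4965 ± 1188 CPM per kb in complete media (SD, n = 6), 10341 ± 3022 in SCM and 12046 ± 4331 in Wnt5a. Krt19 made up 53.5% ± 2.12 of it in complete media and 49.5% ± 1.05 in SCM. Krt20 went from 2.66% ± 0.554 in complete media to 4.56% ± 0.796 in SCM, 5.13% ± 1.02 in Wnt5a and 7.66% ± 1.90 in Wnt5a + anti-Ptk7.

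Per kilobase of coding sequence, only the share of Krt7 separated the antibody cultures from the IgG cultures in both media, although its level did not. With IgG it was 10.6% to 12.3% in SCM and 10.7% to 12.3% in Wnt5a. With anti-Ptk7 it was 8.19% to 10.4% and 8.73% to 9.65%. Neither pair of ranges overlapped, and those with the antibody lay within the range of complete media (7.35% to 10.7%). The share of Krt18 also separated them in Wnt5a, where it was higher with the antibody, and its ranges overlapped in SCM. The mean shares of Krt18 and Krt20, both of type I, were higher with anti-Ptk7 in both media, and that of Krt23 was lower. The ratio of type II to type I keratins, which depends on all of these shares, was lower with anti-Ptk7. In SCM it was 0.280 ± 0.00631 against 0.243 ± 0.0113 with anti-Ptk7, and in Wnt5a 0.277 ± 0.00653 against 0.241 ± 0.00808. It was 0.240 ± 0.0173 in complete media and 0.252 ± 0.00683 in QCM. Per exon length the ratio was 0.176 ± 0.00309 in SCM against 0.164 ± 0.00599 with anti-Ptk7 and the Krt7 share in SCM was 3.40% ± 0.215, so their size depends on the length used. These shares were looked at after the levels were known and are given without a test.

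**Figure D3:**
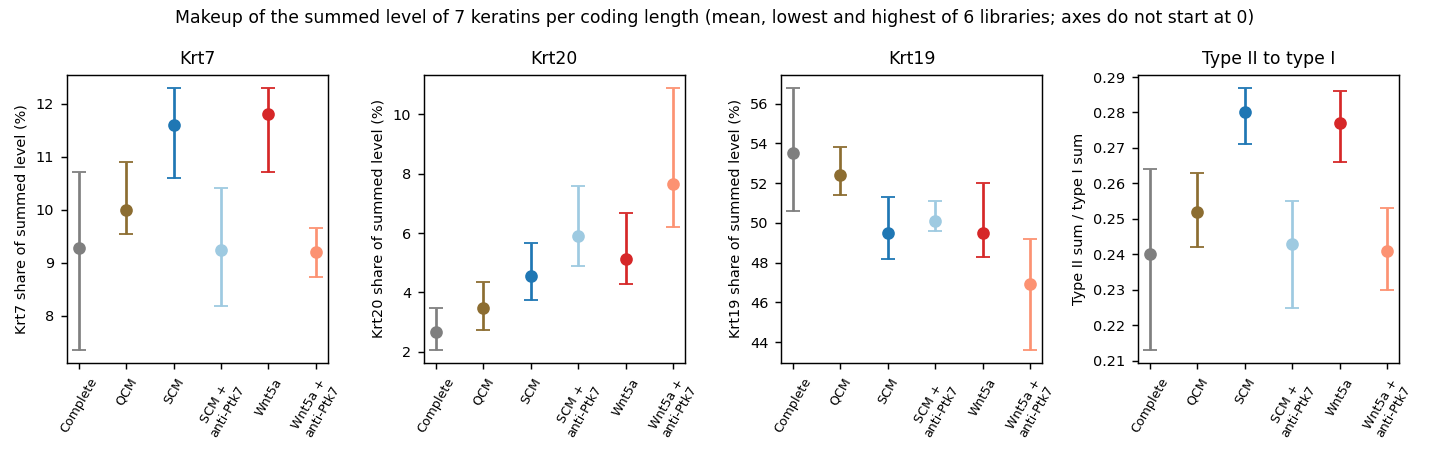
Share of Krt7, Krt20 and Krt19 in the summed level of the 7 keratins per kb of coding sequence (percent), and the ratio of type II to type I keratins, by condition. Points are means and bars run from the lowest to the highest of 6 libraries, on axes that do not start at 0. The Krt7 share and the ratio are lower in both antibody conditions than in the IgG cultures of the same medium.

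The level of Krt8 was set against those of its type I partners. The log2 CPM of Krt8 minus that of Krt18 lay between −1.16 and −0.84 in all 36 libraries, with means from −0.94 ± 0.07 in SCM to −1.09 ± 0.07 in Wnt5a + anti-Ptk7 (SD, n = 6). The log2 ratio of Krt19 to Krt8 lay between 1.83 and 2.20. Over the same libraries the log2 ratio of Krt20 to Krt8 went from −2.44 to −0.08. Across the 36 libraries, which share their conditions and replicate numbers, the levels of the 6 keratins other than Krt80 correlated with Pearson's r between 0.89 and 0.99. After subtraction of the condition means r was between 0.91 and 0.99. Krt80 correlated with them at only 0.14 to 0.44, over counts that are low.

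By the same measure, among 12456 genes, the genes most like Krt7 were Anxa2 (annexin A2, r = 0.98), Krt19 (0.98) and Cnn2 (calponin 2, 0.98). Those most like Krt8 were its pseudogene Krt8-ps (1.00), which shares its sequence, and then Krt19 and Krt18 (both 0.99). Krt18 and Krt19 had Krt8 first (both 0.99). Krt20 went with Lpcat4, Mxd1 (both 0.98) and 2010109I03Rik (0.97), and Krt23 with S100a11 (0.97), Cxcl16 and Gprc5a (both 0.95). Krt80 had no gene above the 0.69 of Lgals1 (galectin-1), and within conditions that value was 0.29. These values are descriptions over libraries that share their conditions and numbers.

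The libraries of 1 condition also differed by replicate number in a way that repeated across conditions. For Krt7, Krt8, Krt18, Krt19, Krt20 and Krt23 the library numbered 1 was the highest and the library numbered 5 the second in 6 of 6 conditions. The library numbered 3 was the lowest in 4 to 6 of 6 for these genes. For Krt20, library 1 stood 1.04 above the condition mean on average (log2 CPM, 0.71 to 1.57 over the 6 conditions) and library 3 stood at −0.68 (−0.82 to −0.51). For Krt8 the averages were 0.63 and −0.37. Krt80 had no such order, with the library numbered 1 highest in 1 condition.

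The replicate number went with 46.6% of the variance of log2 CPM of Krt23 and 29.8% of that of Krt20, while condition went with 50.2% and 68.1%. The number's part lay between 34.5% and 38.9% in Krt7, Krt8, Krt18 and Krt19 and was 6.69% in Krt80. Of the 15497 genes tested, 1917 had a larger part than Krt20 and 12596 a larger one than Krt80. The libraries numbered 1 also had the highest summed Msln, Upk3b, Wt1 and Lrrn4 level in 6 of 6 conditions. The number went with 67.4% of the variance of the summed crypt base stem cell markers and 66.3% of that of the goblet cell markers. For both of these sums, the library numbered 1 was the highest in 0 of 6 conditions. The part of the mouse, the culture or the handling in this order was not tested.

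**Figure D4:**
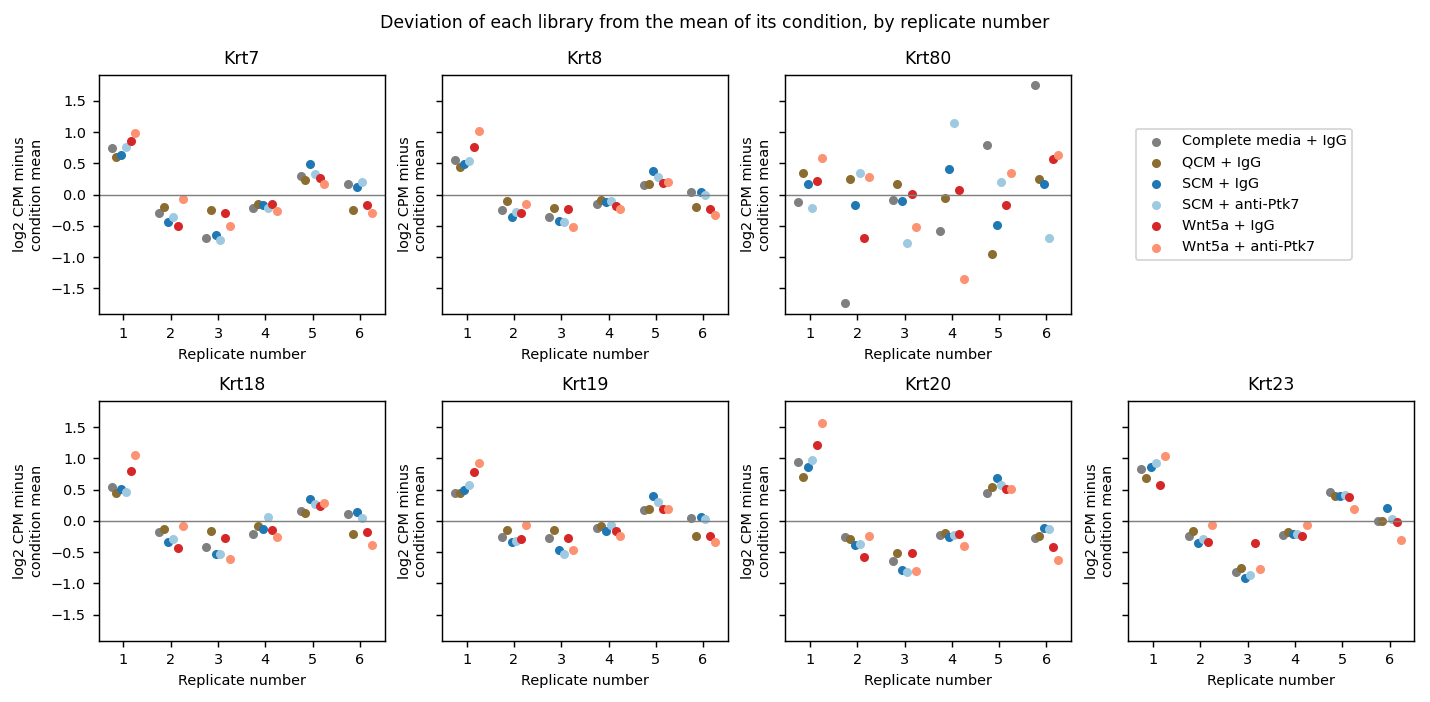
Log2 CPM of each keratin minus the mean of its condition, by replicate number, with a color for each condition. Except for Krt80, the points numbered 1 are at 0.44 or above and those numbered 3 are below 0 in all 6 conditions.

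Compared within a replicate number, the SCM library was higher than that of complete media in 6 of 6 numbers for all 7 keratins, and so was the Wnt5a library. The mean difference of Krt20 between SCM and complete media was 1.82 ± 0.16 (SD over 6 numbers, log2 CPM) and that of Krt8 was 1.07 ± 0.12. QCM exceeded complete media in 6 of 6 numbers for 6 keratins and in 4 of 6 for Krt80, by 0.81 ± 0.13 in Krt20 and 0.38 ± 0.09 in Krt23. SCM exceeded QCM in 6 of 6 numbers for all 7 keratins, by 0.54 ± 0.24 in Krt19 up to 1.08 ± 0.17 in Krt23. Wnt5a exceeded SCM in 6 of 6 numbers for Krt20 (0.37 ± 0.27) and was below it in 6 of 6 for Krt80 (−0.42 ± 0.37), and the other 5 keratins differed in sign between numbers. With anti-Ptk7 in SCM, 6 keratins were lower in 6 of 6 numbers, with mean differences of −0.68 ± 0.12 in Krt7, −0.65 ± 0.09 in Krt23 and −1.80 ± 0.72 in Krt80, and Krt20 was lower in 2 of 6 (0.02 ± 0.08). With anti-Ptk7 in Wnt5a, Krt80 was lower in 6 of 6 numbers (−1.22 ± 0.86), Krt7 in 5 and Krt19 in 4, while Krt20 was higher in 6 of 6 (0.51 ± 0.28). Krt8, Krt18 and Krt23 were higher in 3 numbers and lower in 3. Since the labels do not state that a number is a shared mouse or culture, these values are given without a test.

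The 47 other keratins, most of them of the epidermis and hair, were near the limit of detection, with 11 passing the count filter and 8 above 0.5 CPM on average. Several passed only through the conditions in which they were high, so their levels are given without a count of calls. Krt10, a keratin of differentiated epidermis and the most abundant of them, had a mean of 8.52 CPM in complete media, 9.57 in SCM and 9.01 with Wnt5a. Krt15 had 2.04, 2.18 and 1.38 CPM and Krt87 1.33, 1.12 and 1.39. Higher values were seen in other members. Krt14, a basal keratin of stratified epithelium, had a mean of 0.0594 CPM in complete media. Its mean was 1.59 in SCM and 3.95 with Wnt5a added. Krt6a, a keratin of wounded epidermis, had 0.679, 4.15 and 6.29 CPM, and Krt4, of the esophagus, 1.73 and 6.14 CPM in complete media and SCM. Krt79 went from 0.0592 to 1.70 CPM in Wnt5a. Krt27 had 0.719 CPM in complete media, 7.95 in SCM and 11.5 with Wnt5a.

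Proteins that tie keratins to the cell edge were read beside the keratins. Of 15 cytolinker and desmosome genes tested, 11 rose in Wnt5a, where 8.29% of all genes tested did, and 2 in SCM (Dsg3 and Perp), where 4.96% did, with median log2 fold changes of 0.78 and 0.40. In Wnt5a, Plec (plectin, which binds keratins to hemidesmosomes) rose by a log2 fold change of 1.67 (SE 0.29), Dsg3 (a desmosomal cadherin) by 2.94 (SE 0.65), Evpl (envoplakin) by 1.13 (SE 0.28) and Ppl (periplakin) by 1.06 (SE 0.25). None of the 15 was called for SCM against QCM, Wnt5a against SCM or anti-Ptk7 in SCM or Wnt5a, where 0.903%, 0.690%, 1.23% and 0.884% of all genes were.

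Of 6 hemidesmosome genes tested, 4 rose in SCM and 5 in Wnt5a, against the same shares over all genes. Lama3, the α chain of laminin-332, held 4.29 ± 3.23 CPM in complete media, against 72.4 ± 31.9 in SCM and 173 ± 113 with Wnt5a (SD, n = 6). Lamb3, its β chain, and Itgb4 (integrin β4) rose by log2 fold changes of 0.80 and 0.76 in SCM and of 1.56 and 1.38 in Wnt5a. Lama3 was also called higher in SCM than in QCM (2.13, edgeR adjusted p = 0.0216), where 0.761% of all genes were. Lamb3 was called higher in Wnt5a than in SCM (0.76, adjusted p = 0.0300), where 0.297% were. None of the 6 was called for the antibody in SCM or Wnt5a, where 1.23% and 0.884% of genes were. Of 11 other intermediate filament genes tested, Lmna (lamin A/C) rose in Wnt5a (1.09, SE 0.26), a share near the 8.29% of all genes, and none was called in SCM. Vim (vimentin, of mesenchymal cells) had a mean of 3.84 CPM.

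Of 15 genes known as keratin regulators or binding proteins, 2 rose in SCM and 4 in Wnt5a, beside 4.96% and 8.29% of all genes tested. Grhl3, a transcription factor of barrier epithelia, had log2 fold changes of 2.34 (SE 0.31) and 2.30 (SE 0.31), and Sfn, a 14-3-3 protein known to bind keratins, 1.37 (SE 0.24) and 1.42 (SE 0.24). Fam83h, which acts on keratin filament assembly, and Grhl1 rose in Wnt5a by 0.97 and 0.77. Grhl3 was also the 1 gene of the 15 called in SCM against QCM (1.20, SE 0.29), where 0.761% of all genes were called higher. With anti-Ptk7 in SCM it was again the only one called (−1.03, SE 0.29, edgeR adjusted p = 0.0488), where 0.645% were called lower.

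Markers of the cells that such cultures could hold were read beside these results. Genes of epithelium (Epcam, Cdh1, Vil1, Cdx1, Cdx2 and Hnf4a) summed to 5421 to 10597 CPM over the 36 libraries. By condition, this sum was 5421 to 5550 in complete media, 5834 to 7064 in SCM, 6382 to 7940 in Wnt5a and 6867 to 10597 in Wnt5a + anti-Ptk7. Of these 6 genes, 1 was called higher in Wnt5a, Cdh1 (log2 0.68, edgeR adjusted p = 0.000941), where 8.29% of all genes were. The 8 fibroblast genes summed to 0.00 to 7.36 CPM, with Col3a1, Dcn and Thy1 at 0 in all 36 libraries. The 4 mesothelium genes, a cell type that also has Krt8, Krt18 and Krt19, summed to 51.8 to 334 CPM in complete media, 184 to 950 in SCM and 459 to 1713 in Wnt5a, and to 115 to 624 in SCM + anti-Ptk7. This sum is nearly all Msln, which rose by log2 1.67 in SCM and 2.42 in Wnt5a. Wt1 was at 0 in 36 libraries, Lrrn4 in 25 and Upk3b in 21. Upk3b, under the limit of 0.5 CPM on average, was at 0.0111 ± 0.0272 CPM with anti-Ptk7 in SCM against 1.10 ± 1.58 with IgG (SD, n = 6). The 8 genes of stratified squamous epithelium are all also members of the lists above. They summed to 10.7 to 32.5 CPM in complete media, 19.4 to 72.7 in SCM and 45.5 to 156 in Wnt5a. Dsg3 held much of this rise, with means of 7.26, 26.5 and 55.1 CPM in these conditions, while Krt10 had 8.52, 9.57 and 9.01. Trp63 was at 0 in 36 libraries and Krt5 in 17.

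Among the intestinal cell types, the counts of called genes are to be read beside the 4.96% of all genes called higher in SCM and the 8.29% in Wnt5a. In these media 1.12% and 1.88% were called lower. The shares called higher were 0.355% in QCM and 0.761% in SCM against QCM. Those called lower were 0.394% in Wnt5a against SCM, and 0.645% and 0.432% with anti-Ptk7 in SCM and Wnt5a. Alpi, Fabp1 and Apoa4 of enterocytes rose in SCM (1.26, 1.09 and 1.15) and in Wnt5a (1.02, 0.68 and 0.62), while Anpep fell in both (−1.46 and −0.91, log2 fold changes as the others). Of the 8 enterocyte genes, Apoa1 also rose in SCM (0.72) and the other 3 were called in neither medium. Alpi, Fabp1 and Apoa4 were higher in QCM as well (0.86, 0.76 and 0.74), where no keratin was called. Alpi fell with anti-Ptk7 in SCM (−0.59) and in Wnt5a (−0.72), and Apoa1 was lower in Wnt5a than in SCM (−0.76). Of the 4 Paneth cell genes, Mmp7 and Ang4 rose in SCM (1.23 and 1.09) and in Wnt5a (0.89 and 0.85). Ang4 also rose in QCM (0.65) and Mmp7 in SCM against QCM (0.68), and Lyz1 fell with anti-Ptk7 in Wnt5a (−0.63). Of 3 tuft cell genes tested, Dclk1 and Trpm5 rose in Wnt5a (1.77 and 1.32). Smoc2 of crypt base cells fell in SCM (−0.77) and Wnt5a (−0.67), and the other 3 genes of that list were not called. None of the 5 goblet, 4 enteroendocrine or 5 proliferation genes was called in any of these comparisons. In bulk libraries, more cells of a type and more RNA per cell cannot be told apart, and the part of cell composition in the keratin levels was not tested.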

How the data were processed

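RNA of intestinal organoids was sequenced in 36 libraries (Smart-Seq V4 from little RNA, Nextera XT, no molecular identifiers). Alignment by the authors used GSNAP through HTSeqGenie on mm10 (per the submitters' processing notes), and they deposited raw counts, whole numbers of reads per gene. Coding sequence is named as the counted part, yet the pseudogene Krt8-ps, which has none, holds counts, and how such genes were counted is, like the annotation and the use of strand, not given in the sources used here. Samples were grouped by their labels. A table of the whole series was not used.

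Symbols, positions and coding lengths were taken from GENCODE M21 (GRCm38). With R 4.3.3 and edgeR 4.0.16, 15497 genes kept by filterByExpr were fitted in one quasi-likelihood model with 6 condition means and TMM scaling (factors 0.908 to 1.03). Benjamini-Hochberg adjustment ran over these 15497 genes, and a call needed a fold change over 1.5 with an adjusted p under 0.05, as in the study's methods. The authors' own test, voom with limma on quantile-normalized values (limma 3.58.1), and DESeq2 1.42.0 were alternatives, with other scalings, no filter, only the groups compared, the replicate block, and each library left out in turn. The fits were tested on simulated data. Log2 CPM had a prior count of 2.

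The 7 keratins and all lists were chosen with earlier results of these data known. All 7 keratins are described. In other lists up to 4 called genes with the largest change are named for a comparison, and further genes are named for their level. The values of 1 listed gene are not reported here. Likeness was Pearson's r over the 36 libraries. Pairs of replicates had a chi-square of at least 7.28 per gene, above counting error, so no library was taken as a repeat of another. Intervals cover the spread between libraries.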

Additional observations from a re-analysis of the deposited data

Results flagged for a closer look

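Among the 42 groups of 6 libraries formed by 7 keratins and 6 conditions, 1 library stood apart by Dixon's test. Krt80 in QCM + IgG replicate 5 was at a log2 CPM of 0.70, where the nearest of the other 5 libraries was at 1.61 and the highest at 2.01. The gap was 0.695 of the range, above the 95% critical value for 6 libraries. Chance alone flags about 1 in 20 groups. Krt80 has few counts in every library. In the same library the other 6 keratins were the second highest of QCM + IgG.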

How the results depend on the processing

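The calls in SCM and Wnt5a against complete media depended little on the processing. Under DESeq2, voom with limma, RLE factors, library size alone, no filter, no fold-change cutoff, the replicate block, only the groups compared, the addition of Krt8-ps, and exclusion of the 6 libraries numbered 1 (the last 2 chosen after seeing the data), SCM gave 6 or 7 keratins and Wnt5a 6. Krt80 in SCM was the call that was lost, in the fit of only the groups compared (1.33, adjusted p = 0.0583) and without the libraries numbered 1 (1.21, adjusted p = 0.0910).

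SCM against QCM was the comparison that moved most, from 1 keratin to 3 with voom, 0 without a filter, and 5 each with the replicate block, in the fit of only the groups compared and without the libraries numbered 1. Leaving out 1 library gave 0 to 1. The 5 were Krt7, Krt8, Krt18, Krt20 and Krt23. The replicate block gave 1 keratin for QCM against complete media (Krt20, 0.82, adjusted p = 4.49e-06) in place of 0, and 3 for anti-Ptk7 in SCM in place of 1 (Krt7 at −0.68, Krt23 at −0.66 and Krt80). Without the libraries numbered 1, anti-Ptk7 in SCM gave 2, with Krt7 at −0.74 (adjusted p = 0.0431). The cause of these moves was not tested.

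The block was not the main fit because the labels do not tie a number to a mouse. Over all genes, deviations from the condition means correlated at 0.0920 between libraries of the same number, against −0.0180 between different numbers, and 34 of 90 same-number pairs were over 0.1, short of the rule that all should be. Of 36 libraries, 16 correlated best with their own number. No keratin with a call changed sign under any alternative run. The share of Krt7 depends on the length used, 11.6% in SCM per coding length, 3.40% per exon length and 12.5% with none. Krt80, with 4 to 101 counts, is limited by counting as well as by the spread between libraries.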
